A study of Mus musculus with 12 samples.

Results

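The response of wild-type (WT) mouse peritoneal macrophages to oxidized low-density lipoprotein (oxLDL) was read from 6 of the 12 libraries of the series: 3 of WT macrophages given 20 µg/mL oxLDL for 8 h and 3 of WT macrophages given PBS. The other 6 libraries come from Pim1-/- macrophages under the same treatments and enter here through the estimate of the spread between libraries. Cells had been cultured in RPMI medium with fetal bovine serum, RNA was taken from the isolated macrophages, and stranded mRNA libraries were sequenced on an Illumina instrument. No strain, sex or age of the mice is given, nor whether replicate libraries stand for separate mice or cultures, so the p-values measure the spread between these samples, which may be technical. Levels are TPM, a unit that corrects for transcript length and forces every library to the same total.

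OxLDL is lipoprotein that has been oxidized and is taken up by macrophages through scavenger receptors such as CD36, after which lipid is stored in droplets, hydrolysed in lysosomes or handed to efflux transporters. Oxidized phospholipids and any microbial product carried with a preparation can also be sensed by Toll-like receptors, whose signalling runs through NF-kB, AP-1 and IRF factors. Inflammatory activation of a macrophage is known to shift it toward glycolysis, nitric oxide and itaconate production and away from the burning of fatty acids. The cytokine, interferon-induced and sterol genes of this response were set aside here, and the rest of the transcriptome is described: metabolism, transport, transcription factors, receptors, signalling, membrane traffic, secreted proteins, and genes grouped by the level from which they started. Members of other lists that are also interferon-induced, such as Cmpk2, Usp18, Psmb10, Parp14 and Sp100, are counted in those lists.

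The macrophage label held in every library. Lyz2, the macrophage lysozyme, stood at 9257 to 15956 TPM with oxLDL and at 9255 to 21127 TPM with PBS, and all 10 macrophage markers were above 0 in all 6 libraries. Markers of resident large peritoneal macrophages were weak: Gata6, their lineage factor, stood at 1.12 to 16.3 TPM with oxLDL and at 11.0 to 21.9 TPM with PBS, and Timd4 at 0.401 to 1.36 TPM with oxLDL and at 0 to 0.0971 TPM with PBS. The libraries of a group differed among themselves. PBS 3 had 12867 genes listed at 0, against 8466 and 8532 in PBS 1 and PBS 2 and 8832 to 9964 in the oxLDL libraries, and its Spearman correlation with the other PBS libraries was 0.814 and 0.837 over 12594 genes. It also held lymphocyte and red cell transcripts: the natural killer cell list summed to 2.09 to 11.9 TPM in the oxLDL libraries, and to 333 TPM in PBS 3 against 1.04 and 2.69 TPM in the other PBS libraries, all of it from Nkg7, since the other 9 of its 10 markers were listed at 0 in PBS 3. The red cell list summed to 0.547 to 5.26 TPM with oxLDL and to 72.4 TPM in PBS 3, against at most 1.72 TPM in the other PBS libraries. The part of these transcripts in the results was not tested, but results were also computed without PBS 3. The T cell list summed to 18.7 to 50.5 TPM with oxLDL and to 136 TPM in PBS 3, against 13.2 and 13.8 TPM in the other PBS libraries. OxLDL 2 was closest not to its own group, with which it correlated at 0.884 and 0.899, but to Pim1-/- oxLDL 1 at 0.977. Pim1 itself stood at 47.8, 13.6 and 12.3 TPM in the Pim1-/- oxLDL libraries and at 13.9, 10.2 and 30.6 TPM in the Pim1-/- PBS libraries, against 365, 56.0 and 114 TPM in the WT oxLDL libraries and 93.1, 68.5 and 77.6 TPM in the WT PBS libraries. The libraries labelled WT oxLDL 2 and Pim1-/- oxLDL 1 were the lowest of the WT and the highest of the Pim1-/- libraries, though every WT library lay above every Pim1-/- library. Given their likeness, the genotype labels of these libraries are in doubt, which bears on the WT oxLDL values and on the comparison of genotypes. The rows Rn45s and Mir6236, which hold ribosomal RNA sequence, took 32.7%, 21.2% and 15.0% of all TPM in the oxLDL libraries and 13.5%, 19.5% and 11.7% in the PBS libraries. Results were also computed without PBS 3 and oxLDL 2, singly and together.

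Of 12594 genes tested, 734 rose with oxLDL (5.83%) and 3403 fell (27.0%) on the values as deposited. After median-of-ratios scaling, which sets the typical gene of each library to the same level, 1657 rose (13.2%) and 919 fell (7.30%). Over all tested genes the log2 change had a median of -0.70 as deposited and 0.13 after scaling, and rises made up 17.7% of the calls as deposited and 64.3% of them after scaling. Which of these levels is right for a cell cannot be read from TPM, and in bulk samples fewer cells of a type and less RNA per cell cannot be told apart. Called in the same direction both ways were 731 rises (5.80%) and 919 falls (7.30%), and no gene was called in opposite directions. Scaling shifted the changes upward as a whole. The 731 are thus nearly all of the 734 rises as deposited, and the 919 are all of the falls after scaling. This overlap follows from the shift and is no test of either choice. The risers called both ways held 20.4%, 20.4% and 22.6% of all TPM in the oxLDL libraries, against 2.49%, 2.24% and 2.75% in the PBS libraries. The fallers held 0.749%, 0.744% and 1.42% in the oxLDL libraries, against 6.87%, 7.17% and 5.30% in the PBS libraries. Outside the cytokine, interferon and sterol lists stood 555 of the rises and 899 of the falls. Without PBS 3 and oxLDL 2 together, 616 genes rose and 3200 fell as deposited, and 1243 rose and 732 fell after scaling. The count of falls moved by more than 1.5 times without oxLDL 1 (2010), oxLDL 2 (2000) or PBS 2 (2166) as deposited, and without oxLDL 2 (519) or PBS 2 (580) after scaling.

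**Figure D1:**
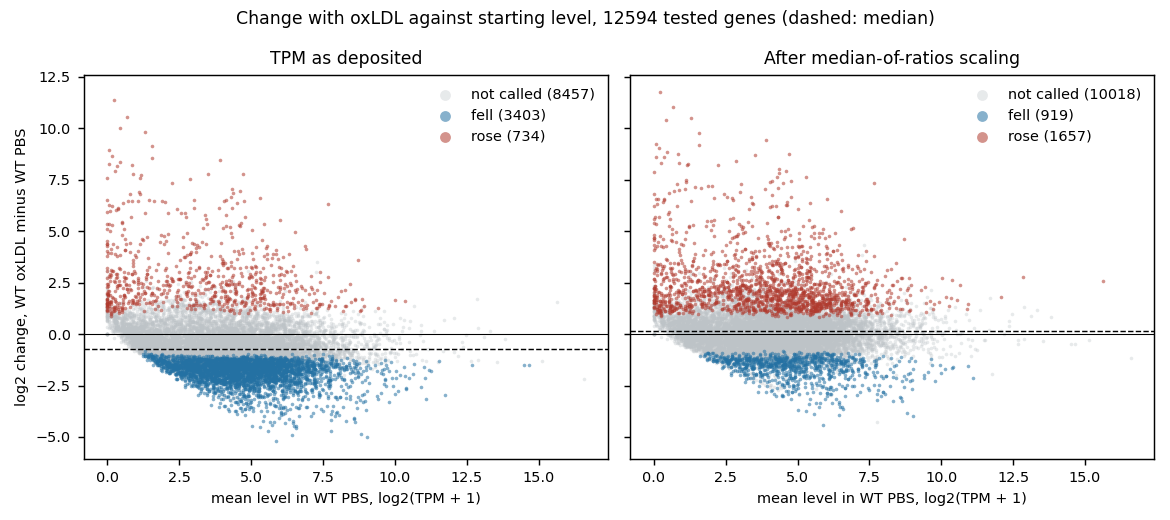
Each point is 1 of 12594 tested genes, with its mean level in the WT PBS libraries as log2(TPM + 1) on the horizontal axis and its log2 change (WT oxLDL minus WT PBS) on the vertical axis, as deposited on the left and after median-of-ratios scaling on the right. The dashed median lies at -0.70 on the left and at 0.13 on the right, the 734 rises on the left reach much larger changes than the 3403 falls, and the lower edge of the cloud on the left of each panel is where a gene would reach 0 TPM.

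Below, log2 changes are those of log2(TPM + 1), oxLDL minus PBS, given first as deposited and then scaled, with the standard error (SE) and the Benjamini-Hochberg adjusted p of limma for the value as deposited. Values per library are in the order 1 to 3. Genes under 1 TPM in every WT PBS library, such as Fam26f, Fpr2, Upp1, Cst7 and Mir155hg, passed the filter only through other libraries. The oxLDL libraries were among these, so the adjusted p of such genes is no support for a rise. Called members of a list are to be read against 5.83% rises and 27.0% falls over all genes as deposited, and against 13.2% and 7.30% after scaling. A list's median change is to be read against -0.70 as deposited and 0.13 scaled. Where leaving out 1 library moved a count of 4 or more by over 1.5 times, that library and the count without it are given. Smaller counts pass that ratio with a gain or loss of 1 or 2 genes. Leaving out PBS 3 and oxLDL 2 together also moved counts of several lists by over 1.5 times, and these are given for only some lists. In every gene named with a change, all 3 oxLDL libraries lay on 1 side of all 3 PBS libraries, before and after scaling. Over all tested genes, that held for 42.7% as deposited (7.95% higher and 34.7% lower with oxLDL) and for 35.6% after scaling (21.0% higher and 14.6% lower). Such separation as deposited was required of the largest changes, and the other named genes were picked by their call. It is therefore no support for a change in the named genes.

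Among the largest rises outside the set-aside lists were genes near silence in PBS. Fam26f, also called Calhm6 and known as an interferon-responsive membrane protein of macrophages, stood at 427, 957 and 232 TPM in the oxLDL libraries, against 0.228, 0.150 and 0 TPM in the PBS libraries. Its log2 change was 8.67 and 9.04 (SE 0.477, adjusted p = 2.65e-08). Cd40, the receptor through which T cells license macrophages, stood at 786, 711 and 1455 TPM in the oxLDL libraries, against 2.81, 3.08 and 0 TPM in the PBS libraries, a log2 change of 8.55 and 9.21 (SE 0.517, adjusted p = 7.04e-08). The gene lies on chromosome 2 from 165055614 to 165071654 (GRCm38). Cd69, an early activation receptor, reached 345, 247 and 1052 TPM in the oxLDL libraries, against 0.754, 0.361 and 0 TPM in the PBS libraries (8.39 and 8.84). Both receptors were at the edge of detection with PBS and abundant with oxLDL. Tarm1, an activating receptor of myeloid cells (7.95 and 8.34), Pydc3, a pyrin domain protein (7.79 and 8.34), and Marcksl1, a membrane-bound regulator of actin (7.54 and 8.43), followed. Marcksl1 had 1394, 1506 and 963 TPM in the oxLDL libraries, against 9.03, 6.68 and 3.08 TPM in the PBS libraries. Pydc3 has a close copy, Pydc4, and reads may be divided between them.

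Among the largest falls were genes well expressed in PBS. Arhgap19, which switches off small GTPases, had 0.365, 0.0986 and 0.894 TPM in the oxLDL libraries, against 65.7, 83.6 and 24.0 TPM in the PBS libraries, a log2 change of -5.20 and -4.42 (SE 0.495, adjusted p = 7.23e-06). Xylt1, which starts glycosaminoglycan chains on proteoglycans, had 2.94, 2.05 and 0.974 TPM in the oxLDL libraries, against 92.2, 90.6 and 72.8 TPM in the PBS libraries (-4.90 and -3.95; SE 0.396, adjusted p = 1.39e-06). Tmem154, a membrane protein, changed by -4.56 and -3.66, with 0.830 to 7.00 TPM with oxLDL and 59.6 to 115 TPM with PBS. These genes fell close to the floor, whereas Cd300lb and Cerk, which started above 100 TPM, kept 9.07 to 29.2 TPM and 9.32 to 28.9 TPM with oxLDL.

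Genes were also grouped by their mean in the WT PBS libraries. Of 754 genes under 1 TPM, 190 rose and 0 fell as deposited, with a median log2 change of 0.60. Genes in this class had to reach 1 TPM in other libraries to be tested, and 135 of them did so in oxLDL libraries alone, so their rise is partly set by the filter. Of 3845 genes at 1 to 10 TPM, 200 rose and 727 fell (median -0.52), of 6651 genes at 10 to 100 TPM, 290 rose and 2236 fell (-0.93), and of 1344 genes at 100 TPM or more, 54 rose and 440 fell (-0.92). After scaling the medians were 0.87, 0.13, 0.03 and 0.11 from the lowest to the highest class. The share of genes that rose after scaling was 32.0%, 11.3%, 12.2% and 12.8%, and the share that fell was 0%, 4.92%, 8.99% and 9.82%. Since the PBS levels that set these classes also enter the change, the classes were set again from the Pim1-/- PBS libraries, which are not part of it. The medians were then -0.17, -0.75, -0.77 and -0.48 as deposited, and 0.25, -0.05, 0.21 and 0.54 after scaling. Among the lowest class 132 of 781 genes still rose and 117 fell as deposited, and the highest class had 213 falls among 1102 genes (19.3%), against 28.5% and 28.8% in the classes at 1 to 10 and 10 to 100 TPM. With the classes set by WT PBS levels these shares were 32.7%, 18.9% and 33.6%. The order of the classes thus depended on which PBS libraries set them.

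Among the genes that started at 100 TPM or more, Tagln2, an actin-binding calponin relative, reached 10522, 7428 and 1254 TPM in the oxLDL libraries, against 331, 249.8 and 664 TPM in the PBS libraries (3.60 and 4.63; SE 0.848, adjusted p = 0.00642). Its level in oxLDL 3 was far below that in the other oxLDL libraries, and the spread is large. Ms4a6d, a membrane protein of activated macrophages, had 1306, 595 and 1001 TPM in the oxLDL libraries, against 112, 99.1 and 196 TPM in the PBS libraries (2.82 and 3.84; SE 0.466). In the class at 1 to 10 TPM the falls included Nlrp1b, an inflammasome sensor (-2.97 and -2.34), Krt80, a keratin (-2.85 and -2.13), and Galnt12, which starts mucin-type sugars (-2.84 and -2.19).

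**Figure D2:**
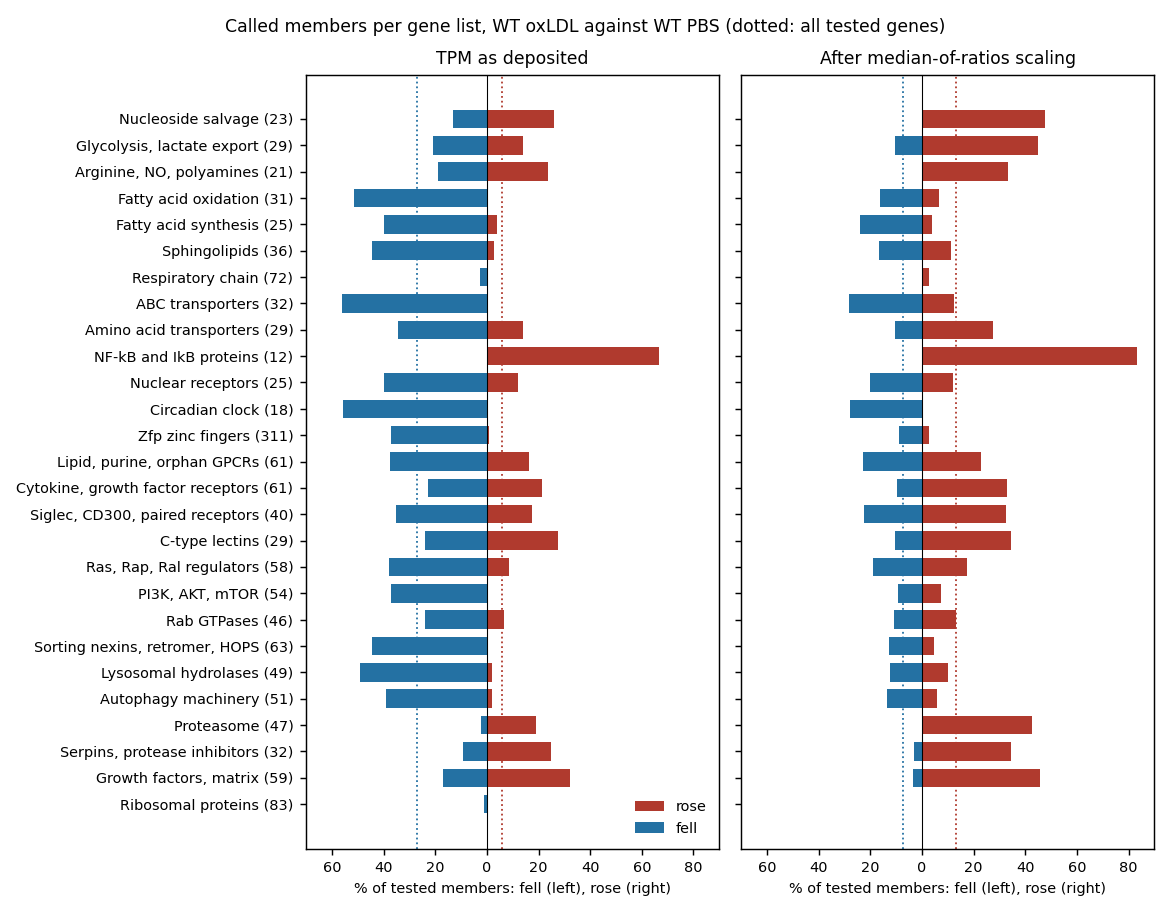
For 27 of the gene lists, bars show the percentage of tested members that fell (left of 0) and rose (right of 0) with oxLDL in WT macrophages, as deposited in the left panel and after median-of-ratios scaling in the right panel, with the number of tested members in parentheses and dotted lines at the shares over all tested genes. NF-kB and IkB proteins have the longest bar of rises in both panels, fatty acid oxidation, ABC transporter, circadian and lysosomal genes reach well past the 27.0% line of falls as deposited, and respiratory chain and ribosomal protein genes have almost no bar.

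In both fatty acid lists falls outnumbered rises, as deposited and after scaling. Of 31 genes of fatty acid oxidation, 16 fell and 0 rose as deposited, and 5 fell and 2 rose after scaling (median -1.19 and -0.27). With PBS 3 and oxLDL 2 both left out, 2 fell and 2 rose after scaling. Acox3, a peroxisomal oxidase of branched fatty acids, stood at 17.8, 29.3 and 38.1 TPM in the oxLDL libraries, against 267, 270.0 and 181 TPM in the PBS libraries (-3.07 and -2.06; SE 0.406, adjusted p = 0.000114). The highest oxLDL library stood at 38.1 TPM and the lowest PBS library at 181 TPM. Of 25 genes of fatty acid synthesis, elongation and activation, 10 fell and 1 rose as deposited, and 6 fell and 1 rose after scaling (-1.06 and -0.17). Fads1, the delta-5 desaturase of polyunsaturated fatty acids, had 3.08, 5.08 and 5.31 TPM in the oxLDL libraries, against 55.1, 64.8 and 75.8 TPM in the PBS libraries (-3.61 and -2.65; SE 0.373, adjusted p = 1.44e-05). Elovl5, which elongates the same class of fatty acids, had 9.72, 9.90 and 26.3 TPM in the oxLDL libraries, against 96.9, 139 and 116 TPM in the PBS libraries (-2.99 and -1.99; SE 0.460). The synthesis and activation gene that rose was Acsl1, which activates long-chain fatty acids to acyl-CoA. It had 226, 325 and 649 TPM in the oxLDL libraries, against 53.4, 52.9 and 19.6 TPM in the PBS libraries, with oxLDL 3 the highest and PBS 3 the lowest of the 6 (3.21 and 4.22; SE 0.489, adjusted p = 0.000373).

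Of 42 genes of glycerolipid and phospholipid turnover, 15 fell and 4 rose as deposited, and 6 fell and 6 rose after scaling (-0.99 and -0.02). Lpin1, the phosphatidic acid phosphatase of triglyceride synthesis, had 0.190, 0.453 and 0.169 TPM in the oxLDL libraries, against 21.5, 24.4 and 7.81 TPM in the PBS libraries (-3.76 and -3.01; SE 0.443, adjusted p = 4.2e-05). Pnpla7, a lysophospholipase, changed by -2.85 and -1.86. Lpcat2, which makes platelet-activating factor and is known as inducible in macrophages, rose to 43.0, 47.4 and 104 TPM in the oxLDL libraries, against 23.4, 18.3 and 11.5 TPM in the PBS libraries (1.75 and 2.72; SE 0.460, adjusted p = 0.0113). Of 36 sphingolipid genes, 16 fell and 1 rose as deposited, and 6 fell and 4 rose after scaling (-1.19 and -0.17). Cerk, which phosphorylates ceramide, had 25.1, 9.32 and 28.9 TPM in the oxLDL libraries, against 406, 477 and 298 TPM in the PBS libraries (-4.27 and -3.26; SE 0.428, adjusted p = 1.07e-05). Galc, the lysosomal galactosylceramidase (-3.62 and -2.62), and Kdsr, an early enzyme of sphingolipid synthesis (-2.69 and -1.89), also fell. Smpdl3b, a membrane phosphodiesterase related to acid sphingomyelinase, rose to 13.9, 13.5 and 31.8 TPM in the oxLDL libraries, against 3.24, 1.62 and 0 TPM in the PBS libraries (3.11 and 3.72). The sphingolipid falls as deposited numbered 10 without oxLDL 1, without oxLDL 2 or without PBS 1, the scaled falls 3 without oxLDL 2 or PBS 2, and the scaled rises 2 without oxLDL 1 or PBS 3.

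Prostaglandin genes divided by enzyme. Of 17 genes of prostaglandin, leukotriene and lipoxygenase pathways, 3 rose and 6 fell as deposited, and 5 rose and 3 fell after scaling (-0.37 and 0.51). Ptgs2, the inducible cyclooxygenase, reached 119.6, 197 and 434 TPM in the oxLDL libraries, against 2.10, 1.22 and 6.46 TPM in the PBS libraries (5.87 and 6.63; SE 0.611, adjusted p = 1.52e-05). Ptges, which turns its product into prostaglandin E, reached 167, 225 and 383 TPM in the oxLDL libraries, against 6.88, 7.67 and 0 TPM in the PBS libraries (5.90 and 6.65; SE 0.655). Hpgds, which turns the same product into prostaglandin D, fell to 6.34, 5.63 and 10.0 TPM in the oxLDL libraries, against 98.0, 103 and 78.2 TPM in the PBS libraries (-3.52 and -2.54; SE 0.455, adjusted p = 9.12e-05). Ptges and Hpgds thus moved in opposite directions. Ptgs1, the constitutive cyclooxygenase, fell with Hpgds (-2.75 and -1.78), as did Ptgr2, which breaks prostaglandins down (-3.20 and -2.27). The scaled rises numbered 3 without oxLDL 2, PBS 1 or PBS 2.

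In sugar metabolism, the rises included a transporter and early, regulated steps. Of 29 genes of glycolysis and lactate export, 4 rose and 6 fell as deposited, and 13 rose and 3 fell after scaling (-0.05 and 0.98); without oxLDL 2 the scaled rises numbered 8. Slc2a6, a hexose transporter of intracellular membranes, had 603, 874 and 1124 TPM in the oxLDL libraries, against 60.5, 37.5 and 73.1 TPM in the PBS libraries (3.91 and 4.92; SE 0.432, adjusted p = 2.53e-05). It lies on chromosome 2 from 27021363 to 27028000 (GRCm38). Hk2, the inducible hexokinase, had 83.5, 55.6 and 82.9 TPM in the oxLDL libraries, against 23.8, 31.7 and 19.2 TPM in the PBS libraries (1.54 and 2.53; SE 0.366, adjusted p = 0.00673). The bifunctional enzymes that set fructose 2,6-bisphosphate, the activator of phosphofructokinase, changed in opposite directions: Pfkfb3 rose (2.52 and 3.53) and Pfkfb2 fell (-2.40 and -1.54). Slc2a3, a high-affinity glucose transporter, had 0.160, 0.297 and 0.267 TPM in the oxLDL libraries, against 4.09, 3.00 and 7.92 TPM in the PBS libraries (-2.19 and -1.57). Shpk, a sedoheptulose kinase known to restrain inflammatory activation, was the 1 pentose phosphate gene called both ways (-2.68 and -1.93), among 10 tested of which 3 fell and 0 rose as deposited.

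Of 72 subunits of the respiratory chain and ATP synthase, 0 rose and 2 fell as deposited, and 2 rose and 0 fell after scaling (-0.31 and 0.67). Of 29 genes of the citrate cycle and its side branches, 1 rose and 9 fell as deposited, and 3 rose and 1 fell after scaling (-1.11 and -0.11). As deposited, the falls numbered 3, 4 and 14 without oxLDL 1, 2 or 3 and 5 without PBS 1. The pair called both ways were Irg1, now named Acod1, which makes itaconate from aconitate and reached 3251 to 10131 TPM with oxLDL against 8.97 to 19.7 TPM with PBS (8.48 and 9.44), and Idh1, the cytosolic isocitrate dehydrogenase. Idh1 fell to 11.7, 8.60 and 29.8 TPM in the oxLDL libraries, against 530.2, 466 and 359 TPM in the PBS libraries (-4.85 and -3.84; SE 0.532, adjusted p = 2.38e-05).

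Amino acid and nucleotide pathways were divided. Of 21 genes of arginine, nitric oxide and polyamines, 5 rose and 4 fell as deposited, and 7 rose and 0 fell after scaling (-0.49 and 0.51). Beside Nos2, the inducible nitric oxide synthase (8.93 and 9.25), these included Ass1, which rebuilds arginine from citrulline, with 92.8, 70.5 and 115 TPM in the oxLDL libraries against 30.9, 14.3 and 0 TPM in the PBS libraries (3.55 and 4.34; SE 0.885, adjusted p = 0.00857), and the arginine importer Slc7a2, with 333, 407 and 966 TPM in the oxLDL libraries against 71.7, 77.7 and 59.7 TPM in the PBS libraries (2.86 and 3.87; SE 0.452, adjusted p = 0.000508). These 3 genes, for use, recycling and import of arginine, were picked as rises from a list in which 4 genes fell as deposited. The list's falls as deposited numbered 1 without oxLDL 1 and 2 without oxLDL 2 or PBS 2. Of 19 genes of tryptophan and NAD metabolism, 3 rose and 5 fell as deposited, and 5 rose and 3 fell after scaling; without PBS 3 there were 8 falls as deposited. Cd38, the main NAD-consuming ectoenzyme of macrophages, had 982, 169 and 451 TPM in the oxLDL libraries, against 8.11, 18.6 and 1.53 TPM in the PBS libraries (5.78 and 6.67; SE 0.683, adjusted p = 4.25e-05). Parp14, which uses NAD to modify proteins (2.89 and 3.87), and Kynu, a kynurenine pathway hydrolase (2.37 and 2.78), rose as well.

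Of 23 genes of nucleoside salvage and breakdown, 6 rose and 3 fell as deposited, and 11 rose and 0 fell after scaling (0.12 and 0.81). Their summed share of TPM was 0.626% to 0.974% with oxLDL and 0.0962% to 0.117% with PBS, most of it from Cmpk2, a mitochondrial nucleotide kinase induced by interferon. Cmpk2 reached 4803, 5131 and 7483 TPM in the oxLDL libraries, against 23.4, 28.0 and 24.2 TPM in the PBS libraries (7.77 and 8.76; SE 0.378, adjusted p = 7.17e-09). Upp1, which splits uridine into uracil and ribose phosphate, reached 16.6, 44.3 and 16.1 TPM in the oxLDL libraries, against 0.469, 0 and 0 TPM in the PBS libraries (4.39 and 4.75; SE 0.443, adjusted p = 1.15e-05), and Pnp2, a purine nucleoside phosphorylase, rose too (4.44 and 4.94). By contrast, of 27 genes that make purines and pyrimidines anew, 0 rose and 10 fell as deposited, and 1 rose and 4 fell after scaling (-0.80 and 0.08). Those falls numbered 5, 6, 6 and 6 without oxLDL 1, oxLDL 2, PBS 1 or PBS 2 as deposited, and 1 without any 1 of these libraries or of PBS 3 after scaling. Of 23 genes of serine, glycine and the folate cycle, 3 rose and 6 fell as deposited, and 4 rose and 5 fell after scaling (-0.66 and 0.21). Ahcyl2, a relative of the enzyme that clears S-adenosylhomocysteine, fell (-3.08 and -2.10). The scaled falls of this list numbered 2, 1, 2 and 2 without oxLDL 1, oxLDL 2, PBS 1 or PBS 2.

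Of 20 genes of branched-chain amino acid breakdown, 10 fell and 1 rose as deposited, and 3 fell and 2 rose after scaling (-1.36 and -0.39). Falls as deposited numbered 3, 5, 5 and 6 without oxLDL 1, oxLDL 2, PBS 1 or PBS 2. Mut, the mitochondrial mutase of methylmalonyl-CoA, had 2.37, 3.62 and 7.35 TPM in the oxLDL libraries, against 35.2, 35.4 and 20.8 TPM in the PBS libraries (-2.60 and -1.67). The member that rose was Bckdhb, a subunit of the first committed dehydrogenase (2.69 and 3.42), which had 15.9, 47.8 and 18.5 TPM in the oxLDL libraries, against 6.62, 6.81 and 0 TPM in the PBS libraries. Of the aldehyde dehydrogenases, Aldh4a1 of proline breakdown fell (-2.47 and -1.51) and Aldh1b1 of the mitochondrial matrix rose (1.76 and 2.76). Gclc, the catalytic subunit that limits glutathione synthesis, fell to 7.40, 1.18 and 5.22 TPM in the oxLDL libraries, against 39.1, 46.8 and 29.0 TPM in the PBS libraries (-2.99 and -2.05; SE 0.519, adjusted p = 0.000944). The cystine importer Slc7a11, which supplies the same pathway, rose to 35.7, 37.2 and 116 TPM in the oxLDL libraries, against 6.22, 8.39 and 3.78 TPM in the PBS libraries (3.00 and 3.89; SE 0.563, adjusted p = 0.00164).

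**Figure D3:**
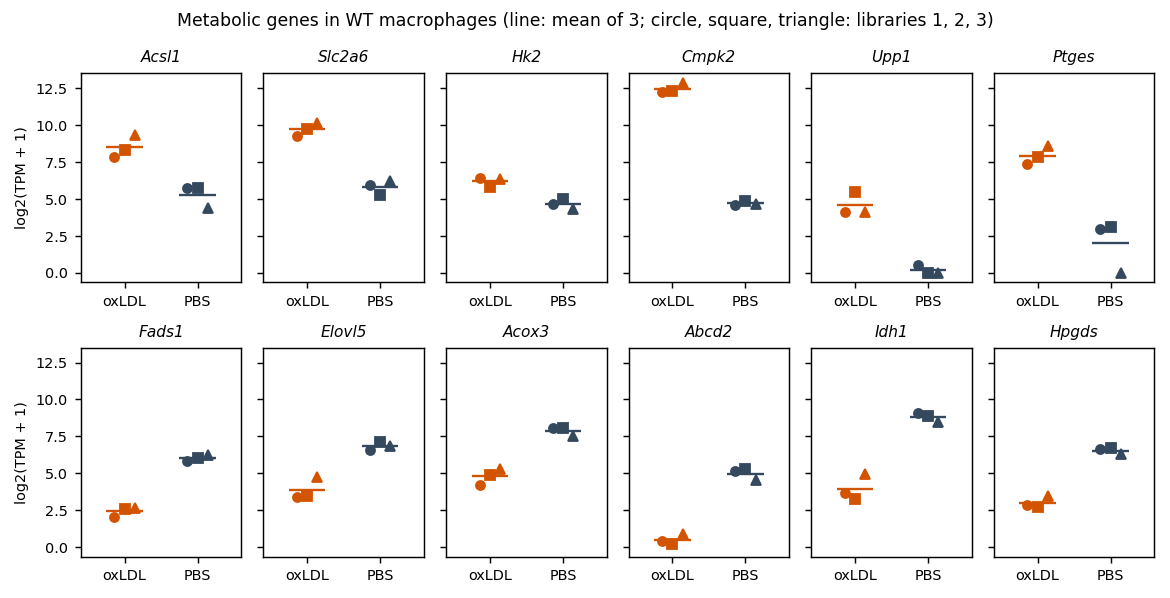
Levels of 12 metabolic genes as log2(TPM + 1), with the 3 oxLDL libraries on the left and the 3 PBS libraries on the right of each panel, symbols for the libraries and a line at the mean of 3. The upper row holds genes that rose, among them Cmpk2 at 4803 to 7483 TPM with oxLDL, and the lower row genes that fell, among them Idh1 at 8.60 to 29.8 TPM with oxLDL, and no panel has overlapping groups.

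Transporters moved in both directions, with more falls than rises in each list as deposited, as over all genes. Of 32 ABC transporters, which pump lipids, peptides and drugs at the cost of ATP, 18 fell and 0 rose as deposited, and 9 fell and 4 rose after scaling (-1.38 and -0.65). The falls numbered 11 without oxLDL 1 as deposited, and 4 without oxLDL 1, oxLDL 2 or PBS 1 after scaling. Abcd2, which carries very long-chain fatty acids into peroxisomes, fell to 0.342, 0.160 and 0.841 TPM in the oxLDL libraries, against 34.5, 38.0 and 21.9 TPM in the PBS libraries (-4.48 and -3.70; SE 0.431, adjusted p = 7.79e-06). It lies on chromosome 15 from 91145871 to 91192007 (GRCm38). Abca2, a lysosomal lipid transporter, had 5.02, 5.25 and 5.62 TPM in the oxLDL libraries, against 43.2, 41.0 and 29.6 TPM in the PBS libraries (-2.61 and -1.65). Of 29 amino acid transporters, 4 rose and 10 fell as deposited, and 8 rose and 3 fell after scaling (-0.89 and -0.02). Slc43a2, an exporter of neutral amino acids, fell (-3.41 and -2.43), while Slc1a2, a glutamate importer, rose (2.60 and 3.06) beside the cystine and arginine importers. Of 37 mitochondrial carriers, 2 rose and 13 fell as deposited, and 5 rose and 4 fell after scaling. As deposited, the falls numbered 6, 8, 7 and 8 without oxLDL 1, oxLDL 2, PBS 1 or PBS 2, and after scaling 2, 1, 2 and 2 without oxLDL 1, 2 or 3 or PBS 2. The pair of rises were Slc25a37, the mitochondrial iron importer mitoferrin, with 76.4, 60.8 and 67.1 TPM in the oxLDL libraries against 14.4, 14.9 and 15.0 TPM in the PBS libraries (2.12 and 3.09; SE 0.328, adjusted p = 0.00041), and the glutamate carrier Slc25a22 (2.03 and 3.03). Slc25a13, an aspartate-glutamate exchanger, fell (-2.71 and -1.75).

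Of the 112 remaining solute carriers, 6 rose and 47 fell as deposited, and 11 rose and 16 fell after scaling (-1.11 and -0.21). Their falls as deposited numbered 22, 28, 30 and 28 without oxLDL 1, oxLDL 2, PBS 1 or PBS 2. Slc37a2, a sugar phosphate transporter abundant in macrophages, had 17.5, 13.6 and 37.8 TPM in the oxLDL libraries, against 450.5, 419 and 267 TPM in the PBS libraries (-4.08 and -3.07; SE 0.446, adjusted p = 2.31e-05). Slc46a3, a lysosomal transporter (-4.10 and -3.17), and Slc26a11, an anion transporter (-3.62 and -2.75), fell as far. Slco3a1, an organic anion transporter, rose to 209.9, 131 and 184 TPM in the oxLDL libraries, against 9.77, 13.9 and 24.1 TPM in the PBS libraries (3.44 and 4.41; SE 0.408, adjusted p = 4.39e-05), and Slc28a2, which takes up purine nucleosides, rose too (2.24 and 3.26). Slc31a2, a copper transporter of endosomes, reached 402, 320.1 and 690.1 TPM in the oxLDL libraries, against 102, 72.9 and 68.1 TPM in the PBS libraries (2.47 and 3.49). Of 52 ion channel genes, 4 rose and 20 fell as deposited, and 9 rose and 7 fell after scaling. The lysosomal calcium channel Mcoln3 (-4.32 and -3.39) and the potassium channel Kcnk13 (-3.74 and -2.85) fell, and the intracellular chloride channel Clic5 (4.80 and 5.26) and the store-operated calcium channel Orai2 (2.17 and 3.10) rose. The channel falls as deposited numbered 12 without oxLDL 1 and 13 without PBS 2, and the rises 2 without oxLDL 3 or PBS 3.

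The NF-kB family was the transcription factor list with the largest share of rises. Of 12 NF-kB and IkB proteins, 8 rose and 0 fell as deposited, and 10 rose and 0 fell after scaling (median 1.70 and 2.69); without PBS 2 there were 5 rises as deposited. Nfkb2, which encodes the precursor of the p52 subunit, had 518, 744 and 755 TPM in the oxLDL libraries, against 63.8, 59.9 and 32.9 TPM in the PBS libraries (3.70 and 4.71; SE 0.448, adjusted p = 5.36e-05). Nfkbia, the inhibitor that NF-kB induces against itself, had 847, 908 and 879 TPM in the oxLDL libraries, against 39.7, 30.0 and 103 TPM in the PBS libraries (4.11 and 5.12; SE 0.421). Nfkbiz, a nuclear IkB protein needed for secondary response genes, had 104, 126 and 184 TPM in the oxLDL libraries, against 6.73, 8.23 and 7.72 TPM in the PBS libraries (3.98 and 4.90; SE 0.345, adjusted p = 2.74e-06). The family's summed share of TPM was 0.238% to 0.281% with oxLDL and 0.0415% to 0.0483% with PBS. Of 35 AP-1, ATF, CREB and MAF factors, 4 rose and 7 fell as deposited, and 9 rose and 2 fell after scaling (-0.09 and 0.76), with 11 falls without oxLDL 3 and 4 without PBS 2 as deposited. Batf2, an interferon-induced partner of Jun proteins, had 94.8, 143 and 121 TPM in the oxLDL libraries, against 3.53, 4.09 and 25.9 TPM in the PBS libraries (3.80 and 4.68), with PBS 3 the highest of its group. Junb rose as well (2.54 and 3.56).

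Several lineage and metabolic factors fell. Of 27 CEBP, GATA, RUNX, MEF2, Ikaros and ZEB factors, 1 rose and 12 fell as deposited, and 2 rose and 4 fell after scaling (-1.10 and -0.26), with 1, 2 and 2 scaled falls without oxLDL 2, oxLDL 3 or PBS 2. Mef2a, a MADS-box factor, had 18.3, 19.4 and 46.6 TPM in the oxLDL libraries, against 181, 247 and 104 TPM in the PBS libraries (-2.66 and -1.64; SE 0.491, adjusted p = 0.00145). Fli1, an ETS factor of blood cells, had 9.98, 8.66 and 14.7 TPM in the oxLDL libraries, against 62.0, 72.1 and 93.1 TPM in the PBS libraries (-2.68 and -1.68; SE 0.362, adjusted p = 0.000136). Of 25 nuclear receptors, 3 rose and 10 fell as deposited, and 3 rose and 5 fell after scaling (-1.08 and -0.23). Falls as deposited numbered 6, 6 and 5 without oxLDL 2, oxLDL 3 or PBS 2, and the scaled falls 1, 2, 2 and 1 without oxLDL 2, oxLDL 3, PBS 1 or PBS 2. Pparg, the fatty acid-sensing receptor that drives lipid uptake genes, fell to 1.98, 2.55 and 3.57 TPM in the oxLDL libraries, against 64.8, 60.2 and 91.2 TPM in the PBS libraries (-4.30 and -3.37; SE 0.456, adjusted p = 1.74e-05). Epas1, which encodes the hypoxia factor HIF-2alpha, fell to 19.2, 20.3 and 31.0 TPM in the oxLDL libraries, against 199, 221 and 191 TPM in the PBS libraries (-3.09 and -2.08; SE 0.381, adjusted p = 6.2e-05). It belongs to 35 bHLH and PAS factors, of which 1 rose and 12 fell as deposited, and 8 rose and 3 fell after scaling; without PBS 2 there were 7 falls as deposited, and without oxLDL 1 there were 5 scaled rises.

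Of 18 circadian clock genes, 10 fell and 0 rose as deposited, and 5 fell and 0 rose after scaling (-1.43 and -0.51). As deposited, the falls numbered 5, 6 and 6 without oxLDL 2, PBS 1 or PBS 2, and the scaled falls 3 without oxLDL 2 or PBS 2. The PAR-domain factors, which carry the clock's output to metabolic genes, were among them: Dbp had 0.414, 0 and 0.386 TPM in the oxLDL libraries, against 6.35, 4.41 and 15.0 TPM in the PBS libraries (-2.78 and -2.11), and Tef had 3.52, 1.22 and 2.15 TPM in the oxLDL libraries, against 30.8, 34.6 and 10.8 TPM in the PBS libraries (-2.91 as deposited, SE 0.466, adjusted p = 0.000547, and also a fall after scaling). Zinc finger proteins named Zfp, many of them transcriptional repressors, fell in 116 of 311 cases and rose in 3 as deposited, and fell in 28 and rose in 8 after scaling (-1.07 and -0.31). Their falls as deposited numbered 55, 62, 69 and 198 without oxLDL 1, oxLDL 2, PBS 2 or PBS 3, and after scaling 15, 7, 11 and 44; the scaled rises numbered 5, 5, 5 and 4. Zfp704 (-2.84 and -2.03) and Zfp715 (-2.62 and -1.66) were the furthest falls named here, and Zfp811 (3.82 and 4.23) and Zfp658 (2.02 and 2.65) rose. In the list of KLF, SP and EGR factors, 3 of 20 rose and 4 fell as deposited, and 4 rose and 0 fell after scaling. The 3 rises as deposited were Sp110 (4.56 and 5.57), Sp100 (3.64 and 4.65) and Sp140 (2.07 and 3.08). These are nuclear body proteins that share only the prefix with the SP factors, so no KLF, SP or EGR factor proper rose as deposited. Falls as deposited numbered 2 without oxLDL 2, PBS 1 or PBS 2. Of 90 enzymes of histone and DNA modification, 3 rose and 31 fell as deposited, and 11 rose and 4 fell after scaling (-0.98 and -0.07); the falls as deposited numbered 16, 14, 18 and 14 without oxLDL 1, oxLDL 2, PBS 1 or PBS 2, and the scaled rises 7 without oxLDL 1. Dnmt3a, a de novo DNA methyltransferase, had 14.7, 31.4 and 26.7 TPM in the oxLDL libraries, against 239.9, 231 and 136 TPM in the PBS libraries (-3.03 and -2.01; SE 0.413, adjusted p = 0.000149).

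Receptors moved in both directions. Of 61 G protein-coupled receptors for lipids, purines, metabolites and unknown ligands, 10 rose and 23 fell as deposited, and 14 rose and 14 fell after scaling (-0.79 and 0.19). Without any 1 library the rises as deposited stayed at 9 to 10 and the falls at 20 to 25. Gpr84, a receptor for medium-chain fatty acids, had 124, 72.5 and 169 TPM in the oxLDL libraries, against 0.578, 0.760 and 0 TPM in the PBS libraries (6.37 and 6.84; SE 0.419, adjusted p = 1.49e-07). Fpr2, which senses formyl peptides and serum amyloid, had 97.1, 70.6 and 82.0 TPM in the oxLDL libraries, against 0, 0.356 and 0 TPM in the PBS libraries (6.24 and 6.59; SE 0.416). Its neighbour Fpr1 rose alongside (6.15 and 6.58), with 205, 40.3 and 83.7 TPM in the oxLDL libraries against at most 0.578 TPM in a PBS library. In the other direction went the receptors for endocannabinoids and lysophosphatidic acid. Cnr2, the cannabinoid receptor of immune cells, had 0.166, 0.961 and 1.78 TPM in the oxLDL libraries, against 41.9, 49.3 and 49.8 TPM in the PBS libraries (-4.69 and -3.90; SE 0.437, adjusted p = 5.91e-06). Lpar5 had 0, 1.84 and 0.720 TPM in the oxLDL libraries, against 38.7, 36.0 and 40.0 TPM in the PBS libraries (-4.53 and -3.75), and Lpar6 had 1.77, 0.769 and 2.52 TPM in the oxLDL libraries, against 44.5, 37.8 and 66.0 TPM in the PBS libraries (-4.25 and -3.36). All 3 lipid receptors stood under 3 TPM in every oxLDL library. Adgre5, the adhesion receptor CD97, fell to 13.5, 21.7 and 23.1 TPM in the oxLDL libraries, against 263, 255 and 172 TPM in the PBS libraries (-3.51 and -2.49; SE 0.411). Pde4b, which degrades cyclic AMP, rose (2.70 and 3.63).

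Chemokine receptors were few: of 15 tested, 2 rose and 4 fell as deposited, and 3 rose and 3 fell after scaling. Ccrl2, an atypical receptor that presents chemerin, reached 636, 902 and 1269 TPM in the oxLDL libraries, against 94.2, 62.7 and 46.8 TPM in the PBS libraries (3.77 and 4.78; SE 0.412, adjusted p = 2.32e-05). Cx3cr1, the fractalkine receptor of tissue macrophages and patrolling monocytes, fell to 0.282, 0.224 and 0.251 TPM in the oxLDL libraries, against 12.7, 18.3 and 10.8 TPM in the PBS libraries (-3.54 and -2.80; SE 0.404), and Cxcr4 fell to 0.195 to 0.747 TPM against 7.96 to 14.1 TPM (-2.87 and -2.12). Of 61 cytokine and growth factor receptors, 13 rose and 14 fell as deposited, and 20 rose and 6 fell after scaling (-0.25 and 0.71). As deposited, the falls numbered 9, 8 and 8 without oxLDL 1, oxLDL 2 or PBS 2. With PBS 3 and oxLDL 2 both left out, 8 rose and 14 fell as deposited. Il15ra, which presents interleukin-15 to neighbouring cells, had 158, 131 and 191 TPM in the oxLDL libraries, against 5.48, 4.81 and 11.1 TPM in the PBS libraries (4.37 and 5.27; SE 0.418, adjusted p = 7.35e-06). The death receptor Fas rose too (2.70 and 3.56). Il6ra, the binding chain for interleukin-6, fell to 4.40, 3.44 and 10.6 TPM in the oxLDL libraries, against 80.2, 66.2 and 96.2 TPM in the PBS libraries (-3.63 and -2.67; SE 0.502, adjusted p = 0.000163), and so did Nrp1, a co-receptor for semaphorins and VEGF (-2.84 and -1.82), and Tnfrsf26, a decoy receptor (-2.82 and -1.81).

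Of 40 Siglecs, CD300 and other paired immune receptors, 7 rose and 14 fell as deposited, and 13 rose and 9 fell after scaling (-0.62 and 0.15). With PBS 3 and oxLDL 2 both left out, 7 rose and 9 fell as deposited. Cd300lb, an activating lipid-binding receptor, fell to 12.7, 9.07 and 29.2 TPM in the oxLDL libraries, against 519, 566 and 469.7 TPM in the PBS libraries (-5.01 and -4.00; SE 0.486, adjusted p = 8.2e-06). Its inhibitory relative Cd300a fell as well, to 6.36, 9.49 and 15.3 TPM in the oxLDL libraries, against 132, 107 and 131 TPM in the PBS libraries (-3.52 and -2.53). Pilra, an inhibitory receptor for sialylated proteins, rose (3.03 and 3.97), and so did its activating partner Pilrb1 (4.02 and 4.60), whose near copy Pilrb2 makes its reads uncertain. Of 29 C-type lectin receptors, 8 rose and 7 fell as deposited, and 10 rose and 3 fell after scaling (-0.10 and 0.47); there were 5 rises without oxLDL 1 or PBS 2 and 4 falls without oxLDL 2 as deposited. Clec4e, the receptor Mincle for glycolipids and dead cells, reached 2125, 1641 and 3744 TPM in the oxLDL libraries, against 19.5, 18.9 and 20.3 TPM in the PBS libraries (6.84 and 7.83; SE 0.502, adjusted p = 4.85e-07). Clec2i, a ligand of NK receptors, fell (-3.06 and -2.13).

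Receptors for dead cells and matrix were divided as well. Of 23 efferocytosis receptors and bridging proteins, 3 rose and 8 fell as deposited, and 4 rose and 5 fell after scaling (-0.66 and 0.07). Their falls as deposited numbered 5 without oxLDL 2 or PBS 1, and the scaled falls 3, 3, 2 and 2 without oxLDL 1, oxLDL 2, PBS 1 or PBS 2. Axl, the phosphatidylserine-sensing kinase of inflamed macrophages, had 81.0, 143 and 192 TPM in the oxLDL libraries, against 31.3, 42.8 and 40.8 TPM in the PBS libraries (1.75 and 2.76; SE 0.408, adjusted p = 0.00598). Xkr8, a scramblase that exposes phosphatidylserine, rose to 41.9, 52.0 and 111 TPM in the oxLDL libraries, against 5.16, 2.61 and 2.10 TPM in the PBS libraries (3.95 and 4.76). Of 19 integrin chains, 2 rose and 4 fell as deposited, and 3 rose and 3 fell after scaling. Itgb8, which pairs with alpha V to free latent TGF-beta, rose to 17.4, 20.9 and 37.7 TPM in the oxLDL libraries, against 1.18, 1.85 and 0 TPM in the PBS libraries (3.76 and 4.33; SE 0.455). Itgb3 (-2.57 and -1.72) and Itgb5 (-2.44 and -1.43), which also pair with alpha V, fell, as did the laminin-binding Itga6 (-3.51 and -2.56). Plxnc1, a semaphorin receptor, fell too (-2.80 and -1.88).

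**Figure D4:**
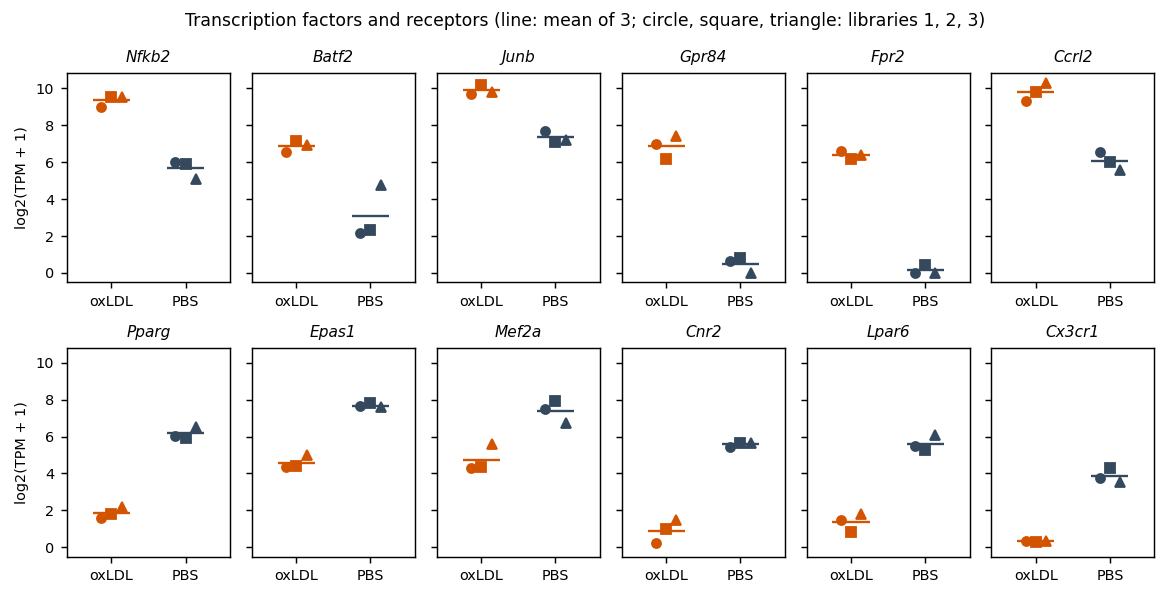
Levels of 6 genes that rose (upper row) and 6 that fell (lower row), as log2(TPM + 1), with the 3 oxLDL libraries on the left and the 3 PBS libraries on the right of each panel, symbols for the libraries and a line at the mean of 3. Gpr84 and Fpr2 lie at 0 to 0.760 TPM in the PBS libraries, Cnr2 and Cx3cr1 lie at 0.166 to 1.78 TPM in the oxLDL libraries, and Batf2 shows PBS 3 above the other PBS libraries.

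Several inhibitors of cytokine signalling rose, named singly rather than as a list, so how many such inhibitors rose or fell was not counted. Socs1, which blocks JAK kinases, had 309, 549 and 63.5 TPM in the oxLDL libraries, against 2.82, 0.642 and 0 TPM in the PBS libraries (6.91 and 7.48; SE 1.15, adjusted p = 0.000721), with oxLDL 3 well below the other oxLDL libraries. Socs3, which blocks the receptors of the interleukin-6 family, had 679, 832 and 919 TPM in the oxLDL libraries, against 3.70, 10.1 and 27.1 TPM in the PBS libraries (6.15 and 7.07; SE 0.547, adjusted p = 3.79e-06). Tnfaip3, the ubiquitin-editing brake A20 on NF-kB, rose as well (2.77 and 3.78), and so did Usp18, a brake on the interferon receptor (5.41 and 6.40). Of 20 Src, Syk, Tec and Jak kinases, 3 rose and 6 fell as deposited, and 7 rose and 2 fell after scaling (-0.34 and 0.52); without oxLDL 2, PBS 1 or PBS 2 there were 3 falls as deposited. The rises included Jak2 (2.40 and 3.37), a kinase of cytokine receptors, and Src (2.45 and 3.44). Tec, a kinase of the Btk family, fell to 4.01, 6.70 and 21.1 TPM in the oxLDL libraries, against 106, 132 and 73.4 TPM in the PBS libraries (-3.43 and -2.45; SE 0.543).

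Of 66 genes of the MAP kinase cascade and its adaptors, 5 rose and 26 fell as deposited, and 11 rose and 6 fell after scaling (-0.86 and -0.05). There were 3 rises without oxLDL 3 and 17 falls without oxLDL 1 as deposited, and 10 scaled falls without PBS 3. Traf1, an adaptor of TNF receptors and a known NF-kB target, reached 186, 263 and 360.3 TPM in the oxLDL libraries, against 7.20, 5.98 and 0 TPM in the PBS libraries (6.08 and 6.82; SE 0.657, adjusted p = 2.06e-05), and Traf5 rose by less (1.87 and 2.85). Mknk2, the kinase of the initiation factor eIF4E, fell to 10.4, 9.70 and 5.09 TPM in the oxLDL libraries, against 147, 216 and 64.2 TPM in the PBS libraries (-3.82 and -2.82; SE 0.527), and the upstream kinases Map3k3 (-2.95 and -1.95) and Map4k1 (-2.86 and -1.93) fell too. Of 54 genes of the PI3K, AKT and mTOR pathway, 0 rose and 20 fell as deposited, and 4 rose and 5 fell after scaling (-1.06 and -0.09), with 12 falls without oxLDL 1 or PBS 1 as deposited and 8 scaled falls without PBS 3. Sesn1, which restrains mTORC1 when leucine is scarce, fell to 1.50, 2.83 and 5.80 TPM in the oxLDL libraries, against 93.3, 110.1 and 63.8 TPM in the PBS libraries (-4.45 and -3.52; SE 0.514, adjusted p = 3.65e-05). Rragd, a GTPase that brings mTORC1 to lysosomes (-3.25 and -2.40), and Inpp5d, the lipid phosphatase SHIP (-2.77 and -1.77), fell with it.

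Small GTPase regulators were shared between the directions. Of 58 regulators of Ras, Rap and Ral, 5 rose and 22 fell as deposited, and 10 rose and 11 fell after scaling (-0.90 and -0.16), with 14 falls without oxLDL 2 as deposited. Rasgrp1, a calcium- and lipid-driven activator of Ras, rose to 20.8, 18.4 and 37.9 TPM in the oxLDL libraries, against 0.172, 0.560 and 0.865 TPM in the PBS libraries (4.08 and 4.56; SE 0.401, adjusted p = 8.91e-06). Rassf5, a Ras and Rap effector needed for integrin adhesion, fell to 2.82, 3.28 and 5.78 TPM in the oxLDL libraries, against 46.7, 48.9 and 54.5 TPM in the PBS libraries (-3.41 and -2.46; SE 0.404). Beside Arhgap19, Arhgap18 fell (-3.72 and -2.91), and the Cdc42 effector Cdc42ep2 rose to 64.9, 87.8 and 122 TPM in the oxLDL libraries, against 3.18, 2.59 and 13.4 TPM in the PBS libraries (3.90 and 4.75; SE 0.492). Of 51 tyrosine and dual-specificity phosphatases, 0 rose and 14 fell as deposited, and 5 rose and 3 fell after scaling (-0.64 and 0.14). Falls as deposited numbered 8, 9 and 8 without oxLDL 2, PBS 1 or PBS 2, and the scaled rises 3 without oxLDL 1, PBS 1 or PBS 2. Dusp3 (-3.11 and -2.09), which acts on ERK and JNK, and Ptpn22 (-3.38 and -2.57), which acts on Src-family kinases, were among the falls.

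In each of the endosomal and lysosomal lists, falls outnumbered rises as deposited, as over all genes, of which 27.0% fell and 5.83% rose. Of 46 Rab GTPases, which mark membrane compartments, 3 rose and 11 fell as deposited, and 6 rose and 5 fell after scaling (-0.45 and 0.32). There were 6 falls without oxLDL 2 as deposited, and 3 scaled falls without oxLDL 2, PBS 1 or PBS 2. Rab20, of maturing phagosomes, had 150.4, 144 and 182 TPM in the oxLDL libraries, against 40.8, 28.0 and 0 TPM in the PBS libraries (3.90 and 4.71; SE 0.966, adjusted p = 0.00828). Rab32 and Rab38, relatives that direct cargo to lysosome-related organelles, rose together (2.33 and 3.34 for Rab32, 2.37 and 2.74 for Rab38). Rab7b, which takes Toll-like receptors from late endosomes, fell to 23.9, 22.1 and 68.0 TPM in the oxLDL libraries, against 499, 411 and 331 TPM in the PBS libraries (-3.58 and -2.56; SE 0.481, adjusted p = 0.000129), and Rab31 fell (-3.15 and -2.13). Of 73 Rab regulators, 2 rose and 33 fell as deposited, and 4 rose and 9 fell after scaling (-1.21 and -0.38), among them Tbc1d8 (-2.94 and -2.02) against the recycling effector Rab11fip1 (2.72 and 3.66). As deposited, the falls numbered 17, 19, 20 and 15 without oxLDL 1, oxLDL 2, PBS 1 or PBS 2, and the scaled falls 5 without oxLDL 2 or PBS 2. Of 63 sorting nexins and subunits of retromer, HOPS and CORVET, 0 rose and 28 fell as deposited, and 3 rose and 8 fell after scaling (-1.08 and -0.07). Those falls numbered 18 and 17 without oxLDL 1 or oxLDL 2 as deposited, and 5, 4, 4 and 3 without oxLDL 1, oxLDL 2, PBS 1 or PBS 2 after scaling. Snx29 had 0.406, 2.57 and 3.16 TPM in the oxLDL libraries, against 41.2, 48.6 and 38.0 TPM in the PBS libraries (-3.98 and -3.13; SE 0.468), and Vps13c, a lipid bridge between the endoplasmic reticulum and late endosomes, fell as well (-3.12 and -2.24).

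Uptake proteins included rises as well. Of 70 clathrin, adaptor and other endocytic proteins, 2 rose and 20 fell as deposited, and 3 rose and 4 fell after scaling (-0.80 and 0.10); the falls as deposited numbered 9, 8, 9 and 8 without oxLDL 1, oxLDL 2, PBS 1 or PBS 2. Ehd1, which drives recycling of receptors from endosomes, reached 382, 392 and 699 TPM in the oxLDL libraries, against 22.2, 26.5 and 47.2 TPM in the PBS libraries (3.92 and 4.91; SE 0.423, adjusted p = 2.06e-05). Cav1, the coat protein of caveolae, reached 131, 162 and 509 TPM in the oxLDL libraries, against 28.9, 32.6 and 33.1 TPM in the PBS libraries (2.77 and 3.77; SE 0.596, adjusted p = 0.00379). Arrb1, a beta-arrestin that desensitizes G protein-coupled receptors, fell to 1.45, 1.28 and 2.34 TPM in the oxLDL libraries, against 71.1, 64.9 and 25.8 TPM in the PBS libraries (-4.25 and -3.35; SE 0.438, adjusted p = 1.44e-05), and the clathrin adaptor Hip1 fell (-3.68 and -2.72). Of 51 SNAREs and regulators, 2 rose and 15 fell as deposited, and 8 rose and 6 fell after scaling; after scaling there were 5 rises without oxLDL 1, oxLDL 2 or PBS 2 and 3 falls without PBS 1 or PBS 2. Syt11, which restrains phagocytosis and secretion in macrophages (-3.34 and -2.45), and Stx17, the SNARE of autophagosomes (-2.46 and -1.56), fell.

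Of 49 cathepsins and other lysosomal proteins, 1 rose and 24 fell as deposited, and 5 rose and 6 fell after scaling (-1.17 and -0.14). Their falls as deposited numbered 11, 12, 12 and 15 without oxLDL 1, oxLDL 2, PBS 1 or PBS 2, and the scaled rises 2, 2, 2 and 1. With PBS 3 and oxLDL 2 both left out, 1 rose and 13 fell as deposited. Their summed share of TPM was 3.43% to 5.87% with oxLDL and 6.89% to 9.36% with PBS. Ctsc, which activates granule proteases, was the rise: it had 406, 324 and 1070.1 TPM in the oxLDL libraries, against 118, 132 and 102 TPM in the PBS libraries (2.15 and 3.17; SE 0.568, adjusted p = 0.0116). Npc1, which moves cholesterol out of lysosomes, fell to 23.0, 24.2 and 40.5 TPM in the oxLDL libraries, against 355, 322 and 129 TPM in the PBS libraries (-3.07 and -2.05; SE 0.473, adjusted p = 0.000397). Sgsh, which degrades heparan sulfate (-3.33 and -2.45), and Manba, a mannosidase (-2.71 and -1.72), fell too. Of 18 subunits of the V-ATPase, the pump that acidifies lysosomes, 1 rose and 6 fell as deposited, and 1 rose and 3 fell after scaling, with Atp6v0a1 at 37.6, 58.1 and 111 TPM in the oxLDL libraries, against 489, 595 and 360.4 TPM in the PBS libraries (-2.90 and -1.87; SE 0.450). Of 51 autophagy genes, 1 rose and 20 fell as deposited, and 3 rose and 7 fell after scaling (-1.05 and -0.13), with 12 or 13 falls as deposited without oxLDL 1, oxLDL 2, PBS 1 or PBS 2. Tecpr1 (-2.95 and -1.94) and Plekhm1 (-2.55 and -1.54), which help autophagosomes meet lysosomes, and the mitophagy receptor Bnip3l (-2.72 and -1.70) were among them. Of 74 kinesins, dyneins and myosins, 0 rose and 26 fell as deposited, and 4 rose and 10 fell after scaling (-0.81 and 0.04), with Klc4 (-3.17 and -2.17) and Kif3a (-2.51 and -1.58) as examples. Without oxLDL 2 there were 17 falls as deposited, and the scaled falls numbered 5 and 6 without oxLDL 2 or PBS 2 and the scaled rises 2 without oxLDL 2 or PBS 1. In the Golgi, St6gal1, which adds terminal sialic acid, fell beside Xylt1 (-4.22 and -3.39).

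**Figure D5:**
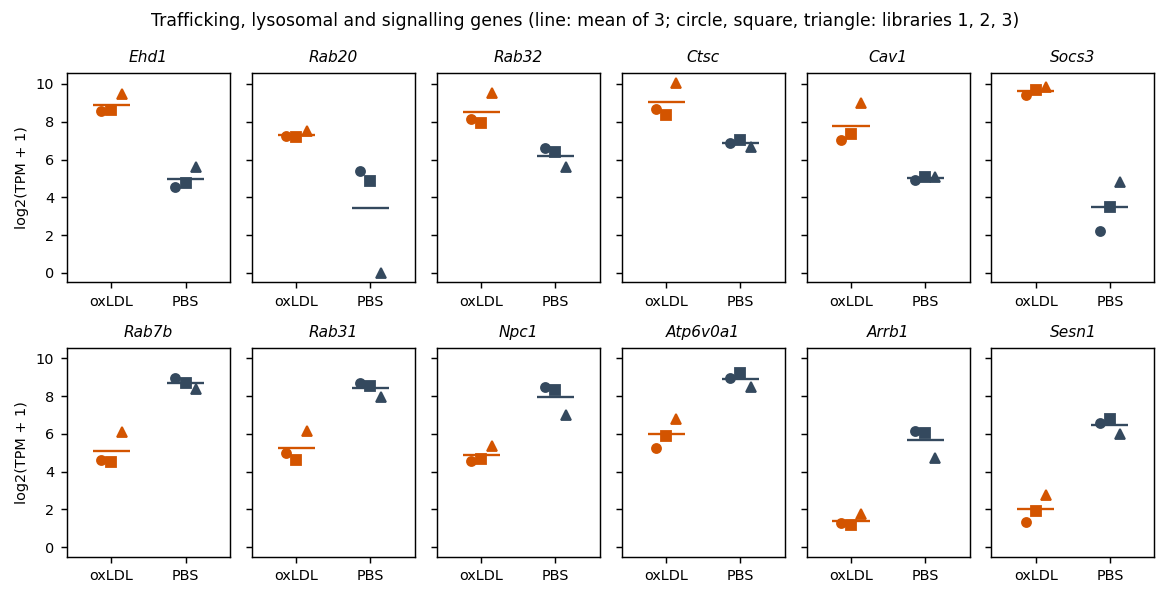
Levels of 12 trafficking, lysosomal and signalling genes as log2(TPM + 1), 6 that rose in the upper row and 6 that fell in the lower row, with the 3 oxLDL libraries on the left and the 3 PBS libraries on the right of each panel, symbols for the libraries and a line at the mean of 3. Rab20 is listed at 0 in PBS 3, which makes its spread wide, while Ehd1 and Socs3 lie at 382 TPM or more in every oxLDL library.

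Genes of the proteasome, which degrades ubiquitin-tagged proteins, rose more often than they fell. Of 47 proteasome subunits and activators, 9 rose and 1 fell as deposited, and 20 rose and 0 fell after scaling (0.29 and 1.29), with 13 scaled rises without oxLDL 1 or oxLDL 2. Psme2 and Psme1, which form the interferon-induced activator PA28, stood at 179 to 672 and 129 to 585 TPM with oxLDL, against 16.5 to 27.4 and 27.4 to 45.3 TPM with PBS (4.03 and 5.02 for Psme2, 3.30 and 4.30 for Psme1). Psmb10, an immunoproteasome subunit, had 320.2, 709 and 136 TPM in the oxLDL libraries, against 17.7, 10.6 and 32.5 TPM in the PBS libraries (4.02 and 5.00; SE 0.600, adjusted p = 0.000315). In all 3 genes oxLDL 3 was the lowest of its group. Of 228 RING, TRIM, F-box and HECT ubiquitin ligases, 17 rose and 74 fell as deposited, and 34 rose and 21 fell after scaling (-0.92 and -0.04). Falls as deposited numbered 45, 42, 49 and 45 without oxLDL 1, oxLDL 2, PBS 1 or PBS 2, and the scaled falls 12 and 13 without oxLDL 2 or PBS 2. Hspa1a, the inducible chaperone Hsp70, rose to 123, 232 and 128 TPM in the oxLDL libraries, against 7.32, 6.80 and 8.22 TPM in the PBS libraries (4.20 and 5.12; SE 0.598, adjusted p = 0.00021), though its near-identical neighbour Hspa1b makes the division of reads uncertain. Of 83 cytoplasmic ribosomal proteins, 0 rose and 1 fell as deposited, and 0 rose and 0 fell after scaling, where the median was 0.41.

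Among the lists described, growth factors and matrix proteins had the largest share of rises as deposited after the NF-kB family. Of 59 growth factors and matrix proteins, 19 rose and 10 fell as deposited, and 27 rose and 2 fell after scaling (0.03 and 0.94). Their summed share of TPM was nonetheless 2.65% to 3.73% with oxLDL and 3.68% to 4.68% with PBS. Without PBS 1 there were 5 falls as deposited. Without PBS 3 and oxLDL 2 together, 18 rose and 8 fell as deposited, whereas the counts of some other lists moved more. Fibroblast markers, which some matrix genes share, summed to 351, 1077 and 403 TPM in the oxLDL libraries and to 307, 687 and 391 TPM in the PBS libraries, and of these 8 markers 0 rose or fell as deposited and 1 rose after scaling; their part in the count was not tested. The members that rose furthest are not growth factors in the strict sense. Lcn2, which binds the iron carriers of bacteria, had 279, 253 and 70.6 TPM in the oxLDL libraries, against 0.316, 1.88 and 0 TPM in the PBS libraries (6.79 and 7.30; SE 0.580, adjusted p = 2.47e-06). Saa3, an acute-phase apolipoprotein, had 4617, 3872 and 1159 TPM in the oxLDL libraries, against 37.6, 49.2 and 104 TPM in the PBS libraries (5.54 and 6.56; SE 0.651). Edn1, the vasoconstrictor endothelin-1, had 74.0, 80.9 and 101 TPM in the oxLDL libraries, against 1.03, 1.23 and 0 TPM in the PBS libraries (5.69 and 6.23; SE 0.395, adjusted p = 2.63e-07). Hgf, the hepatocyte growth factor, fell to 1.98, 3.09 and 6.10 TPM in the oxLDL libraries, against 38.8, 50.5 and 21.0 TPM in the PBS libraries (-3.01 and -2.08; SE 0.507). Of 34 matrix metalloproteinases and ADAM proteases, 3 rose and 8 fell as deposited, and 5 rose and 4 fell after scaling, with 0, 1, 2 and 2 scaled falls without oxLDL 1, oxLDL 2, PBS 1 or PBS 2. Mmp14, a membrane-bound collagenase, had 1713, 868 and 1087 TPM in the oxLDL libraries, against 268, 285 and 278 TPM in the PBS libraries (2.08 and 3.11; SE 0.459, adjusted p = 0.00437), and Adamts4, which cleaves aggrecan and versican, rose at a lower level (2.46 and 3.05).

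Of 32 serpins and other protease inhibitors, 8 rose and 3 fell as deposited, and 11 rose and 1 fell after scaling (0.28 and 0.98). Serpina3g, an inhibitor of cathepsins in activated immune cells, had 84.8, 97.8 and 236 TPM in the oxLDL libraries, against 1.74, 2.70 and 0 TPM in the PBS libraries (5.87 and 6.49; SE 0.572, adjusted p = 8.38e-06). Serpina3f of the same gene cluster rose alongside (5.03 and 5.35), and reads may be divided between such close paralogs. Cst7, an inhibitor of the cathepsin C class of proteases, had 80.5, 35.9 and 28.5 TPM in the oxLDL libraries, against 0.387, 0 and 0 TPM in the PBS libraries (5.32 and 5.67; SE 0.429). Of 33 mitotic and replication genes, 2 (close to the share over all genes) rose and 10 fell as deposited, and 5 rose and 1 fell after scaling, with 5 falls as deposited without oxLDL 1 or PBS 2. The rises as deposited were Ccnd2, a D-type cyclin, with 71.4, 75.8 and 69.0 TPM in the oxLDL libraries against 2.81, 4.05 and 0.761 TPM in the PBS libraries (4.50 and 5.25; SE 0.420, adjusted p = 5.92e-06), and Cdkn1a, the cell cycle inhibitor p21, with 321, 518 and 759 TPM in the oxLDL libraries against 131, 112 and 146 TPM in the PBS libraries (1.95 and 2.98). Of 190 microRNA rows, 7 rose and 9 fell as deposited, and 8 rose and 0 fell after scaling. Those falls numbered 1, 0 and 3 without oxLDL 1, 2 or 3, 1 without PBS 1 or PBS 2, and 48 without PBS 3, and 23 fell after scaling without PBS 3. Mir155hg, the host transcript of miR-155, rose to 43.6, 41.9 and 39.9 TPM in the oxLDL libraries, against 0.0933, 0 and 0 TPM in the PBS libraries (5.37 and 5.69; SE 0.339, adjusted p = 9.71e-08). As it did not pass the filter through the WT PBS libraries, this p is no support for the rise.

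Promoter sequences were set beside the calls, since the rises above include known targets of NF-kB and IRF factors. RefSeq promoters (GRCm38.p6), from 250 bases before to 50 bases after the gene start, were matched by symbol to 9388 of the 12594 tested genes, 521 of them rises and 684 of them falls called both ways. The motifs were searched on either strand. A kB site stood in 4.41% of the rises and 0.731% of the falls, and in 1.73% of all 9388 promoters. The core of the interferon-stimulated response element (ISRE), bound by IRF proteins, stood in 13.6% of the rises and 1.61% of the falls, and in 3.27% of all. Among the 397 rises outside the cytokine, interferon and sterol lists, the ISRE core stood in 6.80% and the kB site in 3.27%. The AP-1 site TGANTCA stood in 12.7% of the rises, 5.70% of the falls and 5.21% of all, and the TATA box TATAAA in 14.2%, 7.16% and 7.07%. The CLEAR element of lysosomal genes stood in 0.384% of the rises, 1.02% of the falls and 0.820% of all, and the CCAAT box, CCAAT, in 34.9%, 42.0% and 39.0%. The ISRE core and kB site can overlap other motifs, and a match is a stretch of letters, not a measured binding site.

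The promoters of the rises with the largest change outside the set-aside lists that hold each of these motifs are printed here, as the 250 bases before the gene start, 5′ to 3′ on the gene's strand, with the match in capitals. In Serpina3g, on the plus strand at chr12:104235897-104236146 (GRCm38.p6), the capitals are the kB site, which begins 85 bases before the start. In Socs1, on the minus strand at chr16:10785537-10785786, the capitals are a pair of overlapping ISRE cores, which begin 83 and 77 bases before the start.
Serpina3g: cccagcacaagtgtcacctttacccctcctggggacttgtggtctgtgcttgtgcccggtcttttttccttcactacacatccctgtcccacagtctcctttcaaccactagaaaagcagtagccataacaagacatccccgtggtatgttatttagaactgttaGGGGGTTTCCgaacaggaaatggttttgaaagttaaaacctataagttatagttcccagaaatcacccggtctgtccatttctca
Socs1: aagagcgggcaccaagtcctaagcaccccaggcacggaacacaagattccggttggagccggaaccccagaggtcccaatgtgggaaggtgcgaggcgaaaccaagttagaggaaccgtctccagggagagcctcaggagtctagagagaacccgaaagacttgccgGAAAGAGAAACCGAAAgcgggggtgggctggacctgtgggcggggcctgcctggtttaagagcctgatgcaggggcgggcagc

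The response was also set against that of Pim1-/- macrophages by the interaction of treatment and genotype. Of 12594 genes, 1 differed between the genotypes at an adjusted p under 0.05, both as deposited and after scaling, and 381 did at an unadjusted p under 0.05 as deposited and 366 after scaling. Without the library labelled WT oxLDL 2, 0 differed by limma's adjusted p as deposited and 1 after scaling, with 357 and 365 at an unadjusted p under 0.05. Without the library labelled Pim1-/- oxLDL 1 these counts were 0 and 1, with 320 and 450. Of the 1650 genes called both ways in WT, 191 had such an unadjusted p as deposited. That so few passed does not show that the responses are the same.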

How the data were processed

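The authors deposited 1 table of TPM values for 24279 genes in 12 libraries. Salmon, DESeq2 and the mm10 build are named in the submitters' processing notes, without versions or roles; the strand setting is not given in the sources used here. Because read depth cannot be recovered from TPM, no counting interval is given, and a value of 0 may be a failed estimate. Genes with at least 1 TPM in at least 3 libraries (12594) were analysed as log2(TPM + 1). limma 3.58.1 in R 4.3.3 fitted the 4 group means over all 12 libraries with an intensity trend (8 residual degrees of freedom), and p-values were adjusted by the Benjamini-Hochberg method with a threshold of 0.05. An exact permutation test of 3 against 3 libraries cannot go below p = 0.1 and was not used. Fold changes on this scale understate those of low genes.

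The same fit was made after median-of-ratios scaling over the 10219 genes above 0 in every library. The fit was tested on simulated data. Gene lists, members and tests were chosen with earlier results of these data known. Named genes were up to 3 per list and direction, with the largest change among those called both ways. These averaged at least 5 TPM in the higher group, as did the genes that follow. To them were added the 12 largest changes per direction and the 3 largest per level class, among genes whose groups did not overlap as deposited. The last were the largest rises with a kB or ISRE match in the promoter, genes on chromosome 18 left out. Of the genes meeting this rule, only those that kept their call under every alternative were named, so their stability is no evidence. Promoters are from RefSeq (GRCm38.p6), as are coordinates. The alternatives were quantile normalization, rescaling without the ribosomal RNA rows, other pseudocounts and filters, WT libraries only, a replicate block, no trend, a minimum change, and each library left out. The cytokine, interferon and sterol lists are not described here, and a few results are not reported here.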

Additional observations from a re-analysis of the deposited data

Results flagged for a closer look

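The oxLDL response of 1 gene differed between WT and Pim1-/- macrophages in the test of the interaction. Mir7678, a microRNA row on chromosome 2, had a log2 difference of -3.59 (WT minus Pim1-/-) as deposited, with a limma adjusted p = 0.0153, and of -4.09 with an adjusted p = 0.00158 after scaling. It was listed at 0 in all 6 WT libraries, at 10.4, 9.25 and 13.9 TPM in the 3 Pim1-/- libraries given oxLDL, and at 0 in the 3 given PBS. It therefore passed the filter of 1 TPM in 3 libraries only through the group in which it was high, so its p is no support for a difference. As deposited its limma adjusted p was 0.0586 without WT oxLDL 2 and 0.0715 without Pim1-/- oxLDL 1, libraries whose genotype labels are in doubt, and after scaling 0.0104 and 0.00596. The gene was chosen after its values were seen, poly(A) libraries hold short microRNA rows only as pieces of longer transcripts, and what the row measures was not tested.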

How the results depend on the processing

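Counts of rises and falls depended on the scaling more than on any other single choice tried. There were 734 rises and 3403 falls as deposited, 1657 and 919 with median-of-ratios scaling, and 1255 and 1403 with quantile normalization. With WT libraries alone 565 rose and 2205 fell, a fit with fewer residual degrees of freedom. Rescaling without the ribosomal RNA rows, pseudocounts of 0.1 and 5, no filter, a filter at 5 TPM, no trend and a minimum log2 change of 1 gave 664 to 814 rises and 2726 to 3585 falls. Leaving out 1 library gave 591 to 743 rises and 2000 to 4400 falls as deposited, and 1213 to 1876 rises and 519 to 1126 falls after scaling. After scaling, the rises without oxLDL 1, 2 or 3 numbered 1232, 1213 and 1876 and those without PBS 1, 2 or 3 numbered 1354, 1309 and 1588, and the falls numbered 761, 519 and 898 and 621, 580 and 1126 in the same order. Leaving out PBS 3 and oxLDL 2 together, an alternative chosen after seeing the data, gave 616 rises and 3200 falls as deposited, and 1243 and 732 after scaling; the cause was not tested. The genes whose response differed between genotypes numbered 1 as deposited, and 0 without WT oxLDL 2 or without Pim1-/- oxLDL 1, alternatives also chosen after seeing the data. Same-numbered WT libraries did not deviate together (r of -0.195 to -0.0402 over genes), so the numbers were not taken to pair them. With a replicate block 669 genes rose and 2862 fell as deposited, and 1395 and 731 after scaling. The 182 called genes named in the text, 92 rises and 90 falls, kept their direction and call under all 26 alternatives in which they were tested, having been selected for it, and 4 of them were not tested under the filter at 5 TPM. TPM gives no depth, so a value near 0 has no known precision.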
